A study of Homo sapiens with 16 samples.

Results

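The broad regions are 728 stretches of open chromatin that were open in all 4 ATAC-seq libraries of the study, of 220915 merged regions and 75610 regions with a peak in every library (0.963% of the latter). ATAC-seq marks accessible DNA by the insertion of a transposase. Peaks from the 4 lists were merged where they shared at least 1 bp on chromosomes 1 to 22 and X, and a merged region was kept when every library had a peak in it and when it spanned at least 2000 bp. The highest fold enrichment of a peak over its local background was then taken per library, and the mean of the sorafenib libraries divided by the mean of the DMSO libraries had to lie above 0.55 and below 1.3. Of 779 shared regions of that width, 6 lay at or under the lower limit and 45 at or over the upper limit. The members were thus chosen by measured values, namely the presence and width of peaks and their fold enrichment, and these are described here without a test.

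All libraries came from cells labelled Huh7, a human liver cancer line. The ATAC-seq libraries were DMSO 1 and 2 (the solvent control) and sorafenib 3 and 4. RNA with a poly(A) tail was sequenced from 3 sorafenib and 3 DMSO libraries, and separately from 3 libraries overexpressing MT1G, a small zinc-binding metallothionein, and 3 with an empty vector. Sorafenib is a kinase inhibitor given against liver cancer. No dose, time or number of clones was given in the labels, and nothing in them says that replicates were separate cultures, so p-values measure the spread between these libraries only.

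As background, most open regions are short gaps between nucleosomes at enhancers and promoters. Promoters inside CpG islands, stretches rich in CG dinucleotides that usually stay unmethylated, are open in most cell types and can be accessible well beyond the start of the gene. Many housekeeping genes, developmental regulators and genes that answer quickly to signals start in such islands, often with a transcript running the opposite way.

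The label of the cells was compared with marker genes, and the RNA depth was checked. The RNA libraries held 16549330 to 26781600 reads counted in genes. Of 20 hepatocyte markers, 2 or 3 had a mean normalized read count of at least 10 in each group, among them HNF4A and RBP4, and 6 to 12 were at 0 in every library of a group. ALB, APOB, APOH and FOXA2 were at 0 in all 12 libraries, and AFP reached at most 4.97, so these markers of liver cells were absent, while HNF4A (88.8 to 350) and RBP4 (324 to 711) were present in every library. KRT7, a keratin of ductal epithelium, had group means from 16351 to 21303. Of the other listed cholangiocyte markers EPCAM was at 289 to 637. KRT19 (0 to 4.65), CFTR (0 to 4.27) and SOX9 (1.79 to 15.0) were low in all 12 libraries. MT1G RNA was at 0 in the 3 vector libraries and at 130 to 179 in the 3 overexpression libraries. Of the 14 hepatocyte markers with a gene start in the table used here, none started in a broad region. Of all genes with a start entry 2.57% did, so none of 14 is near that share.

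Broad regions with a gene start were places dense in CG dinucleotides, and 6 sequences show the range. They are the bases just upstream of 5 starts and the interval between a pair of divergent starts, from RefSeq on GRCh38.p14, read in the direction of transcription of the named gene. SQSTM1 lies in the widest region, CHASERR in the region with the highest fold enrichment, SKP2 and LMBRD2 start back to back in another high region, and TENT5A lies in the region with the most peaks. In these 4, capitals mark GGGCGG (the GC box, or CCGCCC on the other strand), CCAAT, the ETS motif CCGGAAG and TATAAA. In the last 2, from the widest region of a developmental factor (LHX4) and from the region at the lower ratio limit (CSF2), capitals mark every CG. Their positions are chr5:179820655-179820904 (plus strand), chr15:92882593-92882842 (plus), chr5:36151888-36152110 (plus), chr6:81752682-81752931 (minus), chr1:180230014-180230263 (plus) and chr5:132073539-132073788 (plus).
SQSTM1: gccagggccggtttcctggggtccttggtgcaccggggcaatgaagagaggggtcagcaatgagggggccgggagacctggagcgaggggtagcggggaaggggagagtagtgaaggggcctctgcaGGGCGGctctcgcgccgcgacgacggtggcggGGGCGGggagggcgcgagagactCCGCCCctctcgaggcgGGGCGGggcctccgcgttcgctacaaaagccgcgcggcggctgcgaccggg
CHASERR: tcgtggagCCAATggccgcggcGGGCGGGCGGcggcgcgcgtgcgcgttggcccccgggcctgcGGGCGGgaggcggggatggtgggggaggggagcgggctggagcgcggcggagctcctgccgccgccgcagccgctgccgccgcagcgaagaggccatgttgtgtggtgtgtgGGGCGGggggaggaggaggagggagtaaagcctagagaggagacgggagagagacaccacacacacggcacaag
SKP2 to LMBRD2: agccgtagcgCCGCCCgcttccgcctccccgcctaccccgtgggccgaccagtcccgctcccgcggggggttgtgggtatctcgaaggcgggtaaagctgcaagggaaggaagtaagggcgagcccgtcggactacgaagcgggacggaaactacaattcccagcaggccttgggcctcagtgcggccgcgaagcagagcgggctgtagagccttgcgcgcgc
TENT5A: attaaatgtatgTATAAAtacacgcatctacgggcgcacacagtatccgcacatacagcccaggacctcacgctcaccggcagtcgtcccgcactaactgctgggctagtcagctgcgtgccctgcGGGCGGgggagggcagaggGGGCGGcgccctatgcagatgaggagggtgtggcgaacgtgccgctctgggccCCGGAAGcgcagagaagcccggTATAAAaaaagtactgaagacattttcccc
LHX4: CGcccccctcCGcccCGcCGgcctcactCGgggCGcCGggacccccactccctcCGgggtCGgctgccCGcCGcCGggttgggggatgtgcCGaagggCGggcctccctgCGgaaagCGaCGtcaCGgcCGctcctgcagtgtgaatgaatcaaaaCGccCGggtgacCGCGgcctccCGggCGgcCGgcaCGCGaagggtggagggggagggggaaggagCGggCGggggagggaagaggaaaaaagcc
CSF2: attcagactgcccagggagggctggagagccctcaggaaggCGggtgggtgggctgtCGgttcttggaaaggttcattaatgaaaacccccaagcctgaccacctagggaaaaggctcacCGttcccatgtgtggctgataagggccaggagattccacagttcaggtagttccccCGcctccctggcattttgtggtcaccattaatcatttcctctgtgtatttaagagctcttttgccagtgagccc

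The SQSTM1 stretch held 29 CG dinucleotides and 4 GC boxes in 250 bases, and the CHASERR stretch 30 and 4, with 1 CCAAT. The 223 bases between SKP2 and LMBRD2 held 26 CG and 1 GC box. The TENT5A stretch had 19 CG, 2 GC boxes, 1 CCGGAAG and 2 TATAAA. LHX4 had 30 CG at 75.2% G and C, whereas CSF2 had 4 CG at 54% G and C. CSF2 therefore lacked the dense CG of the other 5 although its region was 2339 bp wide.

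Sets of starts were then compared, counted in windows of 250 bases before to 50 bases after each start and on both strands. The 926 starts inside broad regions had a median of 30 CG per 300 bases, against 26 at 13540 starts in narrower shared regions and 14 at all 34961 starts of the table. G and C made up 69.3%, 65.0% and 58.7% of bases in these 3 sets at the median. The ratio of observed to expected CG was at least 0.6 at 89.1%, 82.9% and 49.0% of starts. The GC box GGGCGG, which SP and KLF factors bind, was present in 74.5% of the members' windows, 69.3% of windows in narrower regions and 45.0% of all. Other motifs were less frequent in the members than in narrower shared regions: CCAAT, bound by NF-Y, in 27.0% against 37.0%, CCGGAAG in 12.6% against 19.7%, and GCGCATGC, bound by NRF1, in 4.10% against 5.76%. AAGATGGC (YY1) was present in 4.21% against 5.24% and TGACTCA (AP-1) in 3.35% against 4.79%, with 2.89% and 4.92% over all starts. TATAAA was in 4.75% of the members' windows, 5.18% in narrower regions and 11.5% over all starts. Over all starts CCAAT was in 34.6%, CCGGAAG in 10.3% and GCGCATGC in 3.06% of windows. A start with several entries counts at each, and GGGCGG matches rise with G and C content.

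Width ran from 2000 to 3768 bp, with a median of 2163 bp, and the merged widths of the 728 regions summed to 1623806 bp, of 60177751 bp for all regions with a peak in every library. The ratio of sorafenib to DMSO fold enrichment ran from 0.562 to 1.298, with a median of 0.986, against 0.858 in the 59822 narrower shared regions within the same ratio limits. The median fold enrichment of the broad regions was 8.45 in DMSO 1, 9.75 in DMSO 2, 8.94 in sorafenib 3 and 8.78 in sorafenib 4, as the plot of peak height and widest peak shows. DMSO 2 exceeded DMSO 1 in 620 regions, and sorafenib 3 exceeded sorafenib 4 in 436, so the control libraries differed from each other in most regions. Both sorafenib libraries lay above both DMSO libraries in 133 broad regions and below both in 204. Among narrower shared regions these counts were 4065 and 25753. An exact two-sided test of 2 against 2 libraries could not give a p under 0.33.

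**Figure D1:**
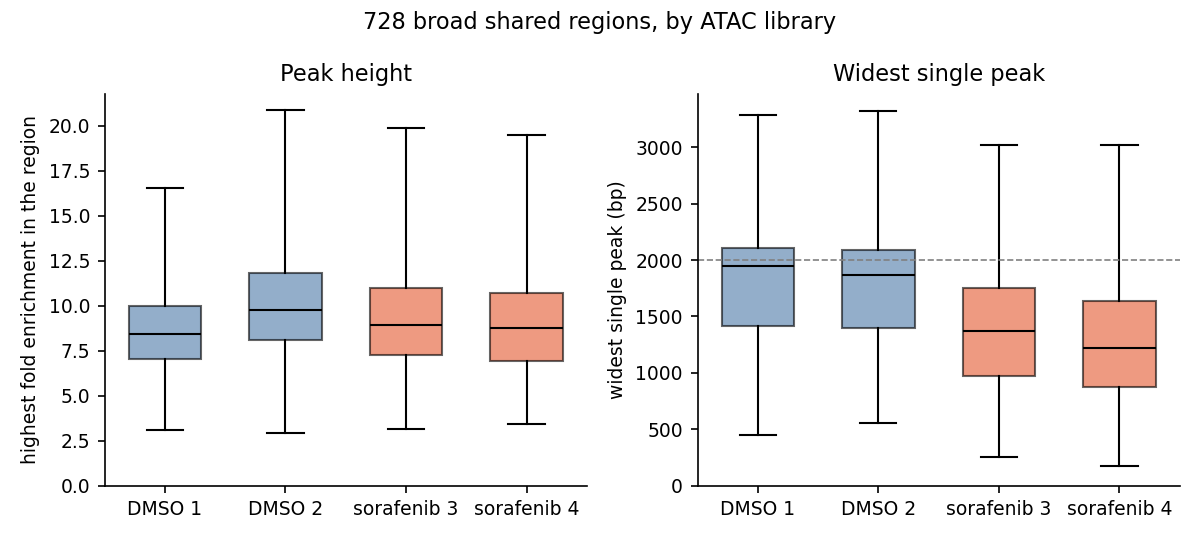
Highest fold enrichment in each broad region (left, linear axis) and width of the widest single peak in it in bp (right) for each ATAC-seq library, over 728 regions. Boxes span the quartiles with the median as a line, whiskers reach the lowest and highest region, and the dashed line is at 2000 bp. Heights overlap in all 4 libraries, while the median widest peak is 1950 and 1868.5 bp with DMSO against 1372 and 1224 bp with sorafenib. The merged width of these same peaks chose the regions.

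The width of a broad region was often pieced together from several peaks, and more so with sorafenib. A single peak held the region's signal in 453 regions (62.2%) of DMSO 1 and 422 (58.0%) of DMSO 2, against 266 (36.5%) of sorafenib 3 and 207 (28.4%) of sorafenib 4. One peak alone spanned at least 2000 bp in 318 and 274 regions with DMSO and in 71 and 52 with sorafenib. Both sorafenib libraries had more peaks than both DMSO libraries in 183 of the 728 regions and fewer in 12, against 2065 and 115 of the 59822 narrower shared regions. The same order was seen over all peaks of the lists, whose median width was 449 and 384 bp with DMSO and 285 and 280 bp with sorafenib. The lists held 131245, 156770, 139304 and 135681 peaks, and the part of peak number and library depth in these widths was not tested. Single peaks of at least 2000 bp numbered 348 and 290 in the DMSO lists and 74 and 55 in the sorafenib lists. Merged width chose the members, and most single peaks of that width came from the DMSO lists. The differences inside members may follow in part from that choice, which was not tested. Without DMSO 1 the rule found 476 regions in place of 728, the lowest count with 1 library left out. It found 500 without DMSO 2, 627 without sorafenib 3 and 649 without sorafenib 4.

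Within shared regions of any ratio, the share with an annotated gene start was larger in every wider class. It was 2.6% of 18959 regions under 500 bp, 8.08% of 37042 from 500 bp, 30.7% of 15283 from 1000 bp and 55.8% of 3547 from 1500 bp. It was 64.8% of 508 regions from 2000 bp, 72.9% of 192 from 2250 bp and 79.7% of 79 of at least 2500 bp. A wider region has more room for a start, and that part was not tested. Fold enrichment did not follow width in this way: its median was highest in regions of 1000 to 1499 bp (12.3, 14.6, 11.1 and 10.9 in DMSO 1, DMSO 2, sorafenib 3 and sorafenib 4) and was 7.41, 8.73, 7.63 and 7.23 in those of at least 2500 bp. Across the 728 members, Spearman's rho of width and mean fold enrichment was -0.20, a description over regions that share libraries.

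**Figure D2:**
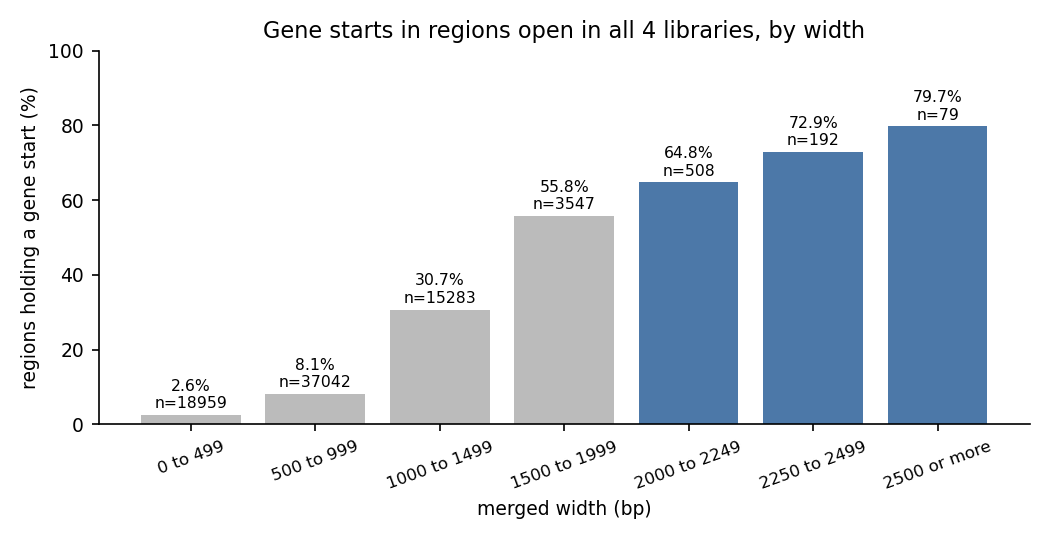
Share of regions open in all 4 libraries that hold a gene start (vertical axis, %) by merged width in bp (horizontal axis), with the number of regions above each bar. Grey bars are narrower than 2000 bp and blue bars are the 779 wide shared regions before the ratio limits, and the share goes from 2.6% in the narrowest class to 79.7% in the widest.

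Of the 728 members, 503 (69.1%) held at least 1 gene start, against 9380 (15.7%) of the narrower shared regions. They held 1 gene in 319 regions, 2 genes in 172 and 3 genes in 12. Starts on both strands, as at divergent promoters, were found in 178 of the 503 (35.4%), against 22.8% of narrower shared regions with a start. The other 225 members split into 30 on chromosome 8, for which the start table used here has no entries, 68 that met the end of a gene with no start entry, and 127 with neither. Of those 127, 88 lay in or met the span of a gene and 39 lay outside every gene, and the nearest start was a median of 22648 bp away. The table lacks 4162 of 19974 coding genes, so the 69.1% is a lower count.

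Where all starts in a region ran on 1 strand (325 regions), the open stretch mostly reached further into the gene than away from it. It extended a median of 891 bp upstream of the first, most upstream start (quartiles 532 and 1274) and 1363 bp downstream (quartiles 953 and 1698). The downstream side was the longer in 214 of 325 regions (65.8%). Counting from the most upstream of several starts lengthens the downstream side by construction. In the 250 regions with 1 start position the medians were 966 bp upstream and 1282 bp downstream, and the downstream side was the longer in 149 (59.6%). The summit of the highest peak had a median position of -54 bp from that start in DMSO 1 (quartiles -347 and 511), -65 bp in DMSO 2 (-299 and 298), -57 bp in sorafenib 3 (-217 and 506) and -51 bp in sorafenib 4 (-213 and 476). Summits were thus spread over both sides of the start.

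**Figure D3:**
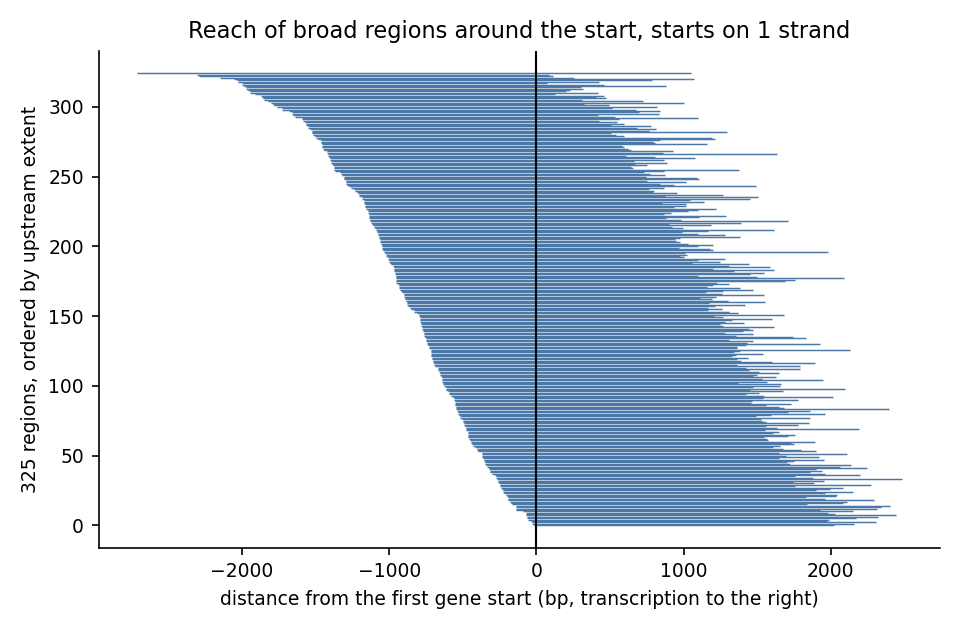
Reach of the 325 broad regions whose starts lie on 1 strand, each drawn as a line from its upstream to its downstream edge in bp around the most upstream start, sorted by upstream reach. The lines extend a median of 891 bp upstream and 1363 bp downstream.

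Chromosome 1 held 97 members, the most of any chromosome. Per 1000 shared regions, chromosome 21 had 15.2 (11 members) and chromosome 1 had 12.1, while chromosome 18 had 4.02 (6 members) and chromosome 19, rich in genes, had 4.21 (11 members).

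The widest regions were the starts of genes with varied roles. The widest, chr5:179818191-179821958, spans the start of SQSTM1, whose product p62 is a receptor for autophagy. Its fold enrichment was 7.09 and 7.74 with DMSO and 6.04 and 6.11 with sorafenib, lower in both treated libraries, and it was built from 12 peaks. AGTPBP1, which trims glutamates from tubulin, started in a region of 3125 bp at chr9:85740960-85744084. JAK1, a kinase of cytokine receptors, started in 3056 bp at chr1:65066109-65069164, and the pair NDUFS6 (a subunit of respiratory complex I) and MRPL36 (mitochondrial ribosome) in 3052 bp at chr5:1799080-1802131. ABHD17C, an enzyme that removes palmitate from proteins, had 3042 bp at chr15:80694357-80697398. LHX4, a homeodomain factor of pituitary development, had 3018 bp at chr1:180229227-180232244, with fold enrichments of 6.24 and 9.39 with DMSO and 8.79 and 8.63 with sorafenib, which overlapped. CDKN2A, which encodes cell cycle inhibitors, shared 2955 bp with CDKN2B-AS1 at chr9:21993799-21996753. The region of PLS3, an actin-bundling plastin, and PLS3-AS1 covered 2945 bp at chrX:115559873-115562817. Its fold enrichment was 9.28 and 10.3 with DMSO against 7.01 and 6.50 with sorafenib, lower in both, for a ratio of 0.691.

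A pair of the 10 widest regions held no annotated start. The first, 3331 bp at chr21:6368962-6372292, lay 94905 bp from the nearest start in the table and its widest peak alone spanned 3290, 3319, 3024 and 3021 bp in DMSO 1, DMSO 2, sorafenib 3 and sorafenib 4. Its fold enrichment of 4.95 to 5.59 was low and even. The other, 3009 bp at chr5:132495535-132498543, lay 4762 bp from the start of IRF1, a transcription factor of the interferon response, with fold enrichments of 7.75 to 8.73.

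The highest fold enrichment belonged to the region of CHASERR, a noncoding RNA next to CHD2, at chr15:92881908-92884002, with 16.5 and 20.9 with DMSO and 18.8 and 18.9 with sorafenib. The other high regions held ORC5 (origin recognition), SKP2 with LMBRD2, and TOP2B (DNA topoisomerase II beta), and 1 at chrX:72620152-72622317 lay 47309 bp from the start of HDAC8. SKP2, the F-box protein that marks the inhibitor p27 for decay, and LMBRD2 shared chr5:36150717-36152810, with fold enrichments of 15.3, 17.3, 17.4 and 17.6 in DMSO 1, DMSO 2, sorafenib 3 and sorafenib 4. The lowest mean fold enrichment, 3.25, was at chr5:179606468-179608532, which has no start. Among regions with a start, ANXA2R with ANXA2R-AS1 (3.12 to 3.73) and ZIC2, a zinc finger factor of development (3.67 to 4.48), were the lowest. The most peaks were counted at TENT5A, a noncanonical poly(A) polymerase, with 13 over the 4 libraries, followed by SQSTM1, ETV1, FLCN and the region of LOC124902859 at the end of TEAD4 with 12 each.

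At the width limit, TCP11L2 and a region on chromosome 13 were just inside at 2000 bp, and 2 regions on chromosomes 2 and 3 just outside at 1999 bp. At the lower ratio limit, CSF2, the gene of the cytokine GM-CSF, was just inside at 0.562, with fold enrichments of 8.01 and 9.96 with DMSO and 4.29 and 5.81 with sorafenib. A region on chromosome 4 followed at 0.565, and those outside had 0.465 and 0.534. At the upper limit, GAREM1 and KCTD12 were just inside at 1.297 and 1.298, and the nearest regions outside had 1.305 and 1.308.

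The genes that start in broad regions numbered 698, of which 529 were coding and 169 were long noncoding RNAs. That was 3.35% of coding and 1.48% of noncoding genes with a start entry, and 2.57% of all 27195. Gene lists differed in how many of their members with a start entry lay in broad regions. For ERK feedback genes, a list of ERK targets and of restraints of MAP kinase signalling, it was 4 of 16 (DUSP6, DUSP10, ETV1 and PHLDA1), for developmental transcription factors 8 of 48 (SOX13, SIX4, ZIC2, ZIC5, LHX4, MEIS1, MSX1 and FOXE1), for splicing factors 4 of 27 (HNRNPA2B1, HNRNPF, HNRNPR and U2AF2) and for replication-dependent histones 7 of 64. Ribosomal protein genes had 3 of 67 (RPL10, RPL7A and RPS27A), zinc finger genes 10 of 430 and transcripts named as divergent or antisense 91 of 1991. Of the immediate early genes only JUN did, 1 of 22. None did of 17 liver transcription factors, 34 listed chromatin proteins, 19 abundant nuclear noncoding RNAs and the 3 genes of the series title with an entry. For lists this short that is near the 2.57% of all genes, as was the 2.33% of zinc finger genes. Chromatin proteins outside that short list did start in broad regions, among them CBX3, CBX5, CHD1, SMARCA2, KDM1B, KDM4C, SMCHD1 and RBBP7, which were looked up after the values were seen. They are examples only, picked without a count of all such genes.

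With sorafenib, more of these genes fell than rose in RNA. Of the 698 genes 588 had a row in the RNA tables, and 554 of them (94.2%) had a mean normalized read count of at least 10 and were tested with limma. At an adjusted p under 0.05, 160 were higher (28.9%), where 34.4% of all 14915 tested genes were higher, and 248 were lower (44.8%), where 35.8% of all were. The share of lower genes was thus above that of all genes and the share of higher genes below it. At an absolute log2 change of at least 1, 62 were higher and 41 lower. These counts stand without the shares of all genes by direction, so their order is not read as a trait of the members. In either direction 103 of the 554 (18.6%) changed by that much, against 21.8% of all genes. The median log2 change was -0.10, against -0.02 over all genes, on the scale of log2(normalized read count + 1), which understates changes of genes with few reads. The members' genes had more reads, with a median of 820 with DMSO against 392 over all tested genes, and the part of this in the counts was not tested. In these bulk libraries fewer cells of a type and less RNA per cell cannot be told apart. The summed level of the hepatocyte markers moved in the same comparison, at 888 to 1016 with DMSO and 451 to 502 with sorafenib. That sum was nearly all RBP4 (521 to 625 with DMSO, 324 to 335 with sorafenib) and HNF4A (333 to 350 and 88.8 to 152). The sum of 7 stellate and fibroblast markers was 2338 to 2591 with DMSO and 1039 to 1079 with sorafenib, and 5 of them had a mean of at least 10 in each group. Within that list LUM was at 1696 to 1872 and 405 to 483 and DCN at 106 to 150 and 50.6 to 65.1, while COL1A1 overlapped (432 to 495 and 421 to 476) and COL3A1 went the other way (45.0 to 65.6 and 87.6 to 110). The part of both lists in the result was not tested.

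Among coding genes of the broad regions more fell than rose, and among noncoding genes more rose than fell. Of 512 coding genes 138 rose and 242 fell, with a median log2 change of -0.14 (27.0% and 47.3%, against 32.5% and 40.4% and a median of -0.07 for coding genes that start in other shared regions). Of 42 noncoding genes 22 rose and 6 fell, with a median of 0.75. Noncoding genes that start in other shared regions did likewise, with 263 of 419 higher and 50 lower and a median of 0.84. Divergent and antisense transcripts rose in 20 of 33 cases and fell in 2, with a median log2 change of 0.78. The libraries' counting strand is not given in the sources used here, so reads of a transcript and its partner on the other strand cannot be told apart where they overlap. DNAJC3-DT, divergent to a chaperone gene, was at 273, 270 and 229 with sorafenib and at 34.9, 26.0 and 21.8 with DMSO, without overlap. Its log2 change was 3.20 (SE 0.18, limma adjusted p = 1.71e-10). UBAC2-AS1 rose by 2.59 (SE 0.21) and FKBP14-AS1 by 3.80 (SE 0.30) on the same scale.

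The largest rises were those of TNFAIP3, JUN and histone genes. TNFAIP3 encodes A20, which restrains NF-kappaB signalling. Its normalized read counts were 4325, 4583 and 4635 with sorafenib and 198, 187 and 174 with DMSO. Every sorafenib library was far above every DMSO library, a log2 change of 4.59 (SE 0.07, limma adjusted p = 3.44e-17). Its region at chr6:137866200-137868234 had fold enrichments of 10.6 and 10.4 with DMSO and 10.6 and 8.88 with sorafenib, with overlap and a ratio of 0.932. JUN, a subunit of the AP-1 factor, starts divergently to JUN-DT at chr1:58783192-58785367. Its counts were 13291, 13695 and 12508.5 with sorafenib and 976, 856 and 897 with DMSO, again without overlap, for a log2 change of 3.85 (SE 0.06, limma adjusted p = 4.67e-17). The fold enrichment there was 8.31 and 8.44 with DMSO and 9.0 and 8.26 with sorafenib, so the libraries overlapped and the ratio was 1.03.

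All 6 tested replication-dependent histone genes of the list rose, where 34.4% of all genes tested did. The median log2 change of the 6 was 3.92. These genes package newly made DNA, and their main transcripts end in a stem-loop without a poly(A) tail. H2AC8 was at 435, 459 and 392 with sorafenib and at 21.4, 16.4 and 26.2 with DMSO, without overlap, a log2 change of 4.29 (SE 0.17). H2BC8, which starts opposite it in chr6:26215371-26217497, rose by 4.23 (SE 0.18), H2BC21 by 3.95 (SE 0.12) and H2AC25, listed under its older name H2AW, by 3.89 (SE 0.09). Fold enrichment at H2AC8 and H2BC8 was 8.31 and 8.61 with DMSO and 7.67 and 6.90 with sorafenib, lower in both treated libraries. Histone genes have close copies, so the assignment of reads among them is uncertain.

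The 4 genes of the ERK feedback list all rose with sorafenib and all rose with MT1G, with median log2 changes of 1.85 and 0.79 against -0.02 and -6.6e-05 over all genes tested. Of all genes tested 34.4% were higher with sorafenib and 11.5% with MT1G. DUSP6, a phosphatase of ERK, was at 240, 288 and 274 with sorafenib and at 25.9, 37.6 and 44.7 with DMSO. The groups did not overlap, and the log2 change was 2.89 (SE 0.18, limma adjusted p = 7.33e-10). With MT1G it was at 54.7, 69.8 and 50.5 against 19.7, 19.7 and 14 with vector, again apart, a log2 change of 1.66 (SE 0.26, limma adjusted p = 0.000141). DUSP10, a phosphatase of JNK and p38, rose by 2.38 (SE 0.10) with sorafenib and by 0.53 (SE 0.12) with MT1G. PHLDA1 rose by 1.32 (SE 0.07) and 0.47 (SE 0.10). ETV1, an ETS factor, rose by 0.31 (SE 0.10) with sorafenib, at 272, 249 and 294 against 215, 234 and 205, and by 1.05 (SE 0.17) with MT1G, at 209, 276 and 241 against 130, 138 and 86.3. Its sorafenib call did not hold with DESeq2 or without sorafenib library 3, where the log2 change was 0.31 and 0.26. These genes were listed with results of these data known, so their count is no independent evidence.

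At these 4 starts fold enrichment with sorafenib was level with DMSO or above it. DUSP6 starts in 2825 bp at chr12:89351713-89354537, with fold enrichments of 8.76 and 10.5 with DMSO and 9.86 and 9.92 with sorafenib. DUSP10 starts in chr1:221741227-221743512, with 12.2 and 14.1 against 13.0 and 13.6. At both the libraries overlapped, with ratios of 1.03 and 1.01. At PHLDA1 (2863 bp, chr12:76030036-76032898) the sorafenib libraries, at 10.5 and 10.1, lay above DMSO, at 7.62 and 9.14. At ETV1 (chr7:13989181-13991748) they were at 12.9 and 12.2, above 8.99 and 11.7, and the peaks numbered 2 and 2 with DMSO and 3 and 5 with sorafenib. The read counts of these genes by library are plotted with those of JUN, TNFAIP3, LHX4 and PLS3.

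**Figure D4:**
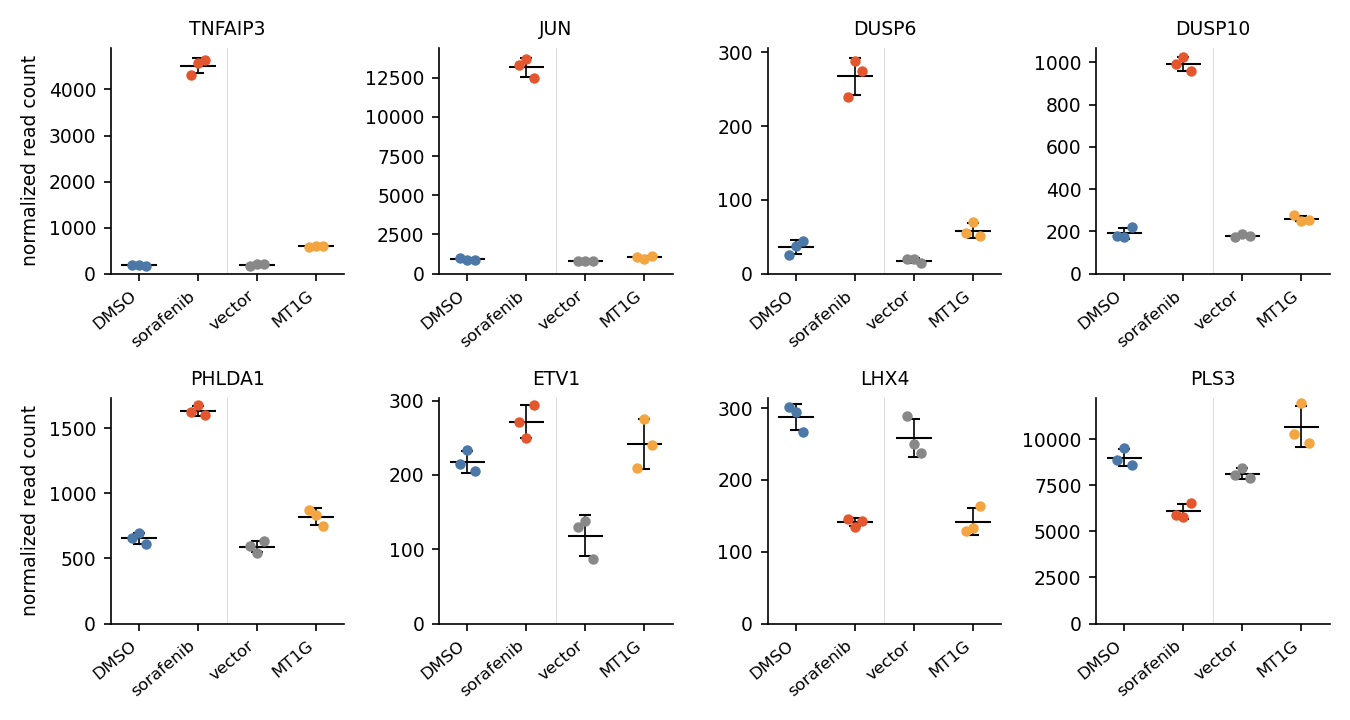
Normalized read counts (linear axes from 0) of 8 genes that start in broad regions, 1 point per library, with the mean as a long bar and the SD as whiskers (n = 3 per group). DMSO and sorafenib are from 1 experiment, vector and MT1G overexpression from the other. TNFAIP3, JUN, DUSP6, DUSP10, PHLDA1 and ETV1 are higher in both treated groups, LHX4 is lower in both, and PLS3 is lower with sorafenib and higher with MT1G.

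The 6 largest falls with sorafenib were those of SSTR1, TSKU, PITPNB, ITPRIPL2, TGFBR3 and BICRAL. SSTR1, a receptor of somatostatin, was at 504, 517 and 461 with sorafenib and at 2965, 2694 and 2726 with DMSO. No library overlapped, and the log2 change was -2.50 (SE 0.07, limma adjusted p = 4.25e-14). Its region at chr14:38207442-38209615 had fold enrichments of 8.44, 9.75, 9.26 and 9.61 in DMSO 1, DMSO 2, sorafenib 3 and sorafenib 4, which overlapped. TSKU, a secreted proteoglycan, fell by 1.92 (SE 0.06) on the log2 scale, and here fold enrichment was lower with sorafenib too, at 9.14 and 8.49 against 9.81 and 13.5. PITPNB, a phosphatidylinositol transfer protein, fell by 1.86 (SE 0.08), ITPRIPL2 by 1.85 (SE 0.08), TGFBR3, a co-receptor of TGF-beta, by 1.83 (SE 0.10) and BICRAL, a subunit of a BAF chromatin complex, by 1.77 (SE 0.12).

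The 4 splicing factors and the 3 ribosomal protein genes fell with sorafenib, with median log2 changes of -0.42 and -0.57. Of all genes tested 35.8% were lower. Among splicing factors HNRNPR fell by 0.55 (SE 0.06), HNRNPF by 0.42 (SE 0.05) and U2AF2 by 0.42 (SE 0.06) on the log2 scale. The call of HNRNPA2B1 (log2 change -0.15, SE 0.06) did not hold with edgeR (-0.12) or without any of 4 single libraries. These were sorafenib 1 (-0.12), sorafenib 3 (-0.15), DMSO 1 (-0.14) and DMSO 2 (-0.13). RPL7A fell by 0.71 (SE 0.07), RPS27A by 0.57 (SE 0.06) and RPL10 by 0.40 (SE 0.07), and ribosomal protein genes have many processed copies that can take reads. Among the genes with the most reads, not corrected for length, EEF1A1, the elongation factor of translation, went from 177021 ± 6276 with DMSO to 117325 ± 1373 with sorafenib (SD, n = 3 each, log2 change -0.59). GAPDH, a glycolytic enzyme, fell by 0.48, the chaperone gene HSP90AB1 by 0.36 and NPM1, a nucleolar chaperone, by 0.33.

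Developmental factors had no common direction. With sorafenib 2 of 8 rose and 2 fell, and with MT1G 1 fell, with median log2 changes of 0.08 and 0.01. LHX4 was at 146, 135 and 143 with sorafenib and at 301, 294 and 267 with DMSO, a log2 change of -1.02 (SE 0.11, limma adjusted p = 3e-07). With MT1G it was at 129, 133 and 163 against 288, 250 and 238, a change of -0.87 (SE 0.14, limma adjusted p = 0.000142). Treated and control libraries did not overlap in either experiment. FOXE1, a forkhead factor of thyroid development, fell by 0.92 (SE 0.08) with sorafenib, and MSX1 rose by 0.61 (SE 0.10). SOX13 (-0.10, SE 0.06) and ZIC2 (-0.06, SE 0.07) did not pass. Among 10 zinc finger genes 5 rose and 1 fell with sorafenib (median log2 change 0.26), ZNF274 by 0.94 (SE 0.07), ZNF131 by 0.39 (SE 0.07) and ZNF592 by 0.34 (SE 0.06). The counts of both lists are read beside 34.4% higher and 35.8% lower of all genes tested with sorafenib. With MT1G 11.3% of all were lower.

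Genes of the widest and the highest regions did not share a direction either. SQSTM1 went from 12866 ± 1121 with DMSO to 11705 ± 87.9 with sorafenib (SD, n = 3 each), a log2 change of -0.13 that did not pass (limma adjusted p = 0.0711) but did with TMM factors (-0.14), without the filter on low values (-0.13) and without DMSO library 2 (-0.18). AGTPBP1 rose by 0.89 (SE 0.10) and PLS3-AS1 by 1.26 (SE 0.26), while PLS3 fell by 0.57 (SE 0.06). ABHD17C fell by 0.74, NDUFS6 by 0.69, CDKN2A by 0.47 and JAK1 by 0.22. In the highest regions, CHASERR (listed under its older name LINC01578) was at 2574, 2595 and 2475 with sorafenib and at 1045, 1052 and 1054 with DMSO, without overlap. It rose by 1.28 (SE 0.06, limma adjusted p = 1.5e-11). TOP2B fell by 1.42 (SE 0.08) and SKP2 by 0.34 (SE 0.06), ORC5 rose by 0.28 (SE 0.08), and LMBRD2 did not pass (log2 change -0.10, SE 0.08). At the upper ratio limit, KCTD12 fell by 1.16 (SE 0.08) although its region had the highest sorafenib to DMSO ratio of the members. CSF2, at the lower limit, was under the read minimum, at 15.2, 12.7 and 4.27 with sorafenib and 4.50, 1.93 and 1.09 with DMSO, and was not tested.

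Across the 554 tested genes the ratio of fold enrichment and the log2 change in RNA were almost unrelated. Spearman's rho was 0.04 and Pearson's r 0.01, as a description over genes that share libraries and, at divergent starts, a region. Split into 3 groups by ratio, 49.2%, 40.2% and 44.9% of genes fell and 26.5%, 32.1% and 28.1% rose, from the lowest to the highest ratios. The ratio limits of the rule narrow the range over which this could be seen.

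With MT1G overexpression more of these genes rose than fell. Of 538 tested genes 117 were higher (21.7%), where 11.5% of all 13914 tested genes were, and 53 were lower (9.85%), where 11.3% of all were. The median log2 change was 0.07, against -6.6e-05 over all genes. At an absolute log2 change of at least 1, 11 members were higher (2.04%, against 2.08% of all), so the larger share came from changes under that size. Here too the members had more reads, a median of 799 with vector against 424 over all tested genes, and the part of this was not tested. The stellate and fibroblast markers summed to 2644 to 3475 with MT1G and 2159 to 2206 with vector, and the 5 cholangiocyte markers to 20173 to 24136 and 16370 to 17795. The cholangiocyte sum was nearly all KRT7, EPCAM was lower with MT1G (397 to 494 against 598 to 637), and KRT19, SOX9 and CFTR reached at most 12.8 in these libraries. Their part was not tested either, and the hepatocyte markers overlapped (805 to 965 and 874 to 945). The counts moved with single libraries: 74 genes were higher without vector library 2 and 69 without vector library 3, and 31, 26 and 23 were lower without vector 1, 2 and 3. Without vector 2 and 3, 13.7% and 12.8% of members were higher, against 7.61% and 7.23% of all genes. Lower calls over all genes also dropped, from 1575 to 1072, 824 and 764 without vector 1, 2 and 3. Without MT1G library 2 the calls over all genes dropped as well, from 1604 to 1100 higher and from 1575 to 1114 lower. With no library left out, genes in other shared regions had 12.4% higher and 11.8% lower.

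The 5 largest rises with MT1G past a mean of 100 reads were those of PHLDB2, TNFAIP3, PLXNA2, TPBG and TMEM154. PHLDB2, which anchors microtubules at the cell cortex, was at 974, 1249 and 1041 with MT1G and at 315, 346 and 333 with vector, without overlap. Its log2 change was 1.71 (SE 0.10, limma adjusted p = 1.52e-10). TNFAIP3 rose by 1.58 (SE 0.11), at 584, 598 and 596 against 174, 217 and 204. PLXNA2, a receptor of semaphorins, was at 935, 751 and 842 against 306, 276 and 302, a change of 1.51 (SE 0.10), whereas with sorafenib it fell by 0.75 (SE 0.12). TPBG, a membrane glycoprotein of fetal and tumour cells, rose by 1.21 (SE 0.11), and TMEM154 by 1.07 (SE 0.12). JUN rose by 0.36 (SE 0.09), against 3.85 with sorafenib.

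The largest falls with MT1G were in BCAM, LHX4, APRT, C15orf61 and ADAM15. BCAM, a laminin receptor, was at 484, 424 and 479 with MT1G and at 866, 808 and 928 with vector, without overlap, a log2 change of -0.91 (SE 0.10, limma adjusted p = 8.37e-07). APRT, which salvages adenine, fell by 0.68 (SE 0.10), and ADAM15, a membrane metalloprotease, by 0.54 (SE 0.09). C15orf61 fell by 0.58 (SE 0.15), a call that was lost without vector library 1 (-0.49) or 2 (-0.54). Of the other lists, none of the 6 tested histone genes passed with MT1G, 1 of 4 splicing factors fell (U2AF2 by 0.38, SE 0.08), and 2 of 3 ribosomal protein genes fell. Of all genes tested 11.5% were higher and 11.3% lower with MT1G. RPL7A fell by 0.31 (SE 0.08), a call lost without vector library 2 (-0.31) or 3 (-0.30). RPL10 fell by 0.32 (SE 0.09), lost without MT1G library 2 (-0.23) or vector library 2 (-0.32) or 3 (-0.31).

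The experiments had separate controls, and 536 of the genes were tested in both. Of the 148 genes higher with sorafenib 41 were higher with MT1G, which was 27.7% of the former and 35.3% of the 116 higher with MT1G. In the lower direction 34 genes were shared, 13.7% of the sorafenib calls and 64.2% of the MT1G calls. A further 51 genes were lower with sorafenib and higher with MT1G, 20.6% of the genes lower with sorafenib. With 21.6% of all 536 genes higher with MT1G, that share was near the one among the members as a whole. The reverse held for 8 genes. Over all 13748 genes tested in both, 12.9% of the genes higher with sorafenib were also higher with MT1G (35.2% of the MT1G calls), and 16.3% of those lower were also lower (55.2%). MT1G RNA itself was at 158 to 194 with sorafenib and at 0 in all DMSO libraries, so it differed in both experiments. PLS3 was among the 51: it rose by 0.39 (SE 0.08) with MT1G, at 10310, 11943 and 9792 against 8070, 8449 and 7872. ITPRIPL2 also changed sides, with a rise of 0.49 (SE 0.08) with MT1G. The plot of both log2 changes shows TNFAIP3 and DUSP6 at the upper right, with LHX4 and BCAM at the lower left.

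**Figure D5:**
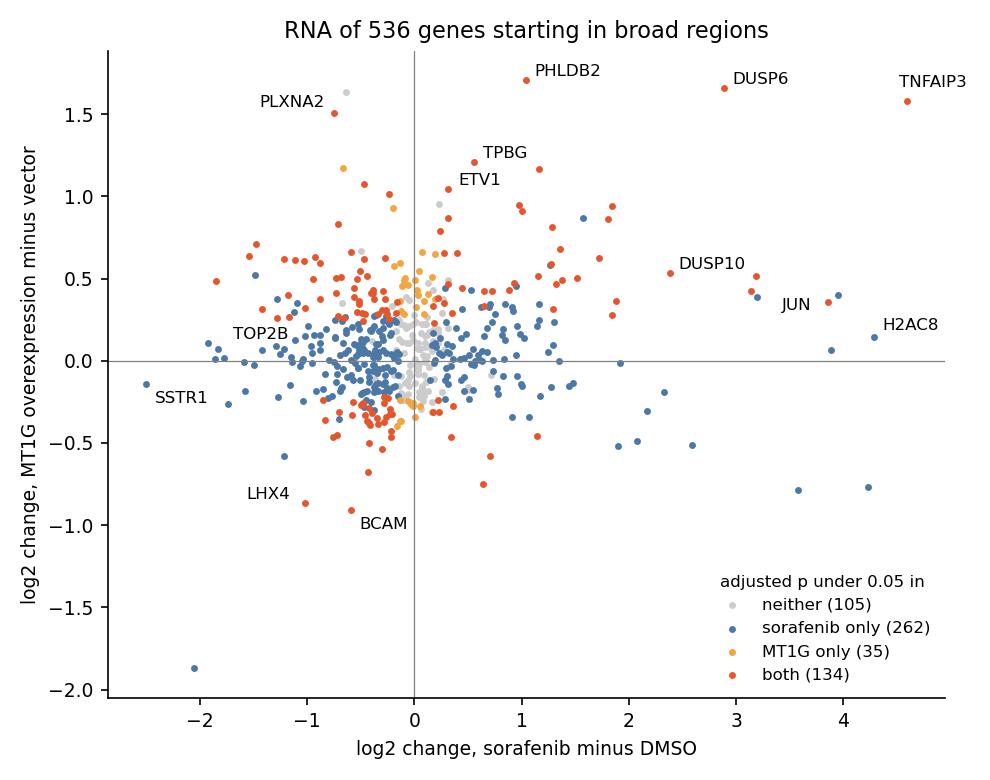
Log2 change in RNA with sorafenib (horizontal axis) and with MT1G overexpression (vertical axis) for 536 genes that start in broad regions, coloured by which comparison gave an adjusted p under 0.05. Of these genes 134 passed in both comparisons, 262 in the sorafenib comparison alone, 35 in the MT1G comparison alone and 105 in neither, and TNFAIP3 lies farthest to the right.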

How the data were processed

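ATAC-seq peaks were used as the 4 deposited lists, 1 per library. In the deposited narrowPeak format, each peak carries a fold enrichment over background as a ratio and a −log10 q-value. The submitters' processing notes name, with no role or order, cutadapt, Bowtie2 2.4.1, Picard, SAMtools, MACS2 2.2.7.1, HISAT2 1.1.0, featureCounts 1.6.1, DESeq2 and the hg38 build. RNA values were read counts per gene divided by a size factor of each library, a signal normalized by the authors before it was deposited. They were whole multiples of 1 read for all values (100% within 0.001), and reads were recovered from them for alternatives. Calls used limma 3.58.1 (trend and robust, two-sided, R 4.3.3) on log2(normalized read count + 1), over all genes with a mean of at least 10, Benjamini-Hochberg adjusted p under 0.05. Alternatives used edgeR 4.0.16, DESeq2 1.42.0 and TMM factors, and the tests were checked on simulated data.

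Gene starts came from RefSeq promoters (GRCh38.p14), which hold no entry on chromosome 8. Of 698 genes 588 matched an RNA row, 13 of them by an older name. Replicate numbers name RNA libraries only: deviations of same-numbered libraries correlated from -0.06 to 0.03 (sorafenib) and from -0.14 to 0.04 (MT1G). The members and the gene lists were chosen with earlier results of these data known. Named regions are the 10 widest, the 5 highest and lowest in fold enrichment, the 5 with most peaks and those next to each limit. Named genes start in those regions, show the 6 (sorafenib) or 5 (MT1G) largest changes past a mean of 100 without overlap of groups, lead a list by p or reads, or have the most reads.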

Additional observations from a re-analysis of the deposited data

How the results depend on the processing

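The number of broad regions was 711 with peaks of −log10 q of at least 5, 722 with equal numbers of top peaks and 662 when merged peaks had to share a fraction of at least 0.5 of the shorter one. It was 4012 at a minimum width of 1500 bp and 8 at 3000 bp, and 459 when 1 peak had to span the width, which was chosen after seeing the data. Leaving out 1 library gave 476 to 649 regions and 470 to 624 genes. The genes numbered 3257 at 1500 bp, 7 at 3000 bp and 452 with 1 wide peak, and 1047 when any overlap of the gene counted. With an absolute log2 change of at least 1, the sorafenib calls were 62 higher and 41 lower and the MT1G calls 11 and 0. At 3000 bp they were 1 and 4, and 1 and 2. With 1 wide peak they were 97, 164, 87 and 29, and with starts on 1 strand 86, 142, 65 and 33. Of all genes in the main fit 34.4% were higher and 35.8% lower with sorafenib, and 11.5% and 11.3% with MT1G. An absolute log2 change of at least 1, called or not, was seen in 21.8% and 3.01% of all genes. The numbers tested in these smaller sets are not given here, so their counts are not read as shares. Leaving out 1 library gave 149 to 166 higher and 231 to 256 lower with sorafenib, and 69 to 130 and 23 to 65 with MT1G. DESeq2 called 148 and 242, and 112 and 54. edgeR, added after seeing the data, called 172 and 238, and 113 and 48. With the replicate block the counts were 156, 240, 118 and 46, and the numbers do not pair the libraries.

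The members' share of lower genes with sorafenib and of higher genes with MT1G lay above that of all genes in 14 of 14 fits. Their share of higher genes with sorafenib lay below it in 12 of 14, not without the filter or with DESeq2, and that of lower genes with MT1G in 13 of 14, not without the filter. With 1 library left out, some log2 changes that did not pass changed sign. With sorafenib CDKN2B-AS1 ran from -0.028 to 0.27. With MT1G CDKN2A ran from -0.039 to 0.149, FLCN from -0.119 to 0.11, GAREM1 from -0.254 to 0.0073, H2AW from -0.014 to 0.129, MRPL36 from -0.017 to 0.056 and TOP2B from -0.0198 to 0.152. The cause was not tested. Changes in fold enrichment, which chose the members, were not tested.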

Other observations

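The following values were looked up after the results were seen. Short RNA genes that lie whole inside an open region were counted from the gene annotation. Broad regions held 20 of 443 tRNA genes, in 11 regions (1.51% of the 728, against 0.276% of narrower shared regions). They held 7 of 154 snRNA genes, in 6 regions (0.824% against 0.0518%): RNU2-2, RNU4-1, RNU4-2, RNU5E-1, RNU5F-1, RNU6ATAC and LOC124900516. The RNU genes encode RNAs of the spliceosomes. Broad regions also held 8 of 1911 miRNA genes (1.1% against 0.209% of regions), and none of 1196 snoRNA and 49 rRNA genes. By number of genes the narrower shared regions held more: 199 tRNA genes (44.9% of the 443), 31 snRNA genes (20.1%) and 129 miRNA genes (6.75%). A wider region has more room for a whole gene, and that part was not tested.

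Among the 51 wide shared regions outside the ratio limits, the start of MT1X, a metallothionein like MT1G, lay in chr16:56681866-56684095 with a ratio of 0.446. Its fold enrichment was 15.4 and 18.7 with DMSO and 7.06 and 8.13 with sorafenib. Above the upper limit, EGR1, an immediate early factor, had 6.01 and 7.18 with DMSO and 8.83 and 9.92 with sorafenib, a ratio of 1.42. NFE2L2, the regulator of the response to oxidants, had 5.47 and 6.95 against 7.73 and 8.76, a ratio of 1.33. At all 3 the sorafenib libraries lay on 1 side of both DMSO libraries. The ratio of these same values set the regions apart, so this follows largely from the choice and was not tested.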
